A study of Caenorhabditis elegans with 2 samples.

Results

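The left arm of chromosome II of the nematode Caenorhabditis elegans was described by the small RNAs that came down with HRDE-1 and by those of the wild-type strain N2. The arm was taken by position alone, as the first 30% of the 15280 bins of 1 kb on chromosome II, that is II 1 to 4584000 in the positions of the deposited table. It held 4584 of the 100257 bins of the series, or 4.57%. No signal value was used to choose it.

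In the germline, the Argonaute protein HRDE-1 works in the nucleus. It binds 22G small interfering RNAs, which RNA-dependent RNA polymerases make from target transcripts, and guides transcriptional silencing and methylation of histone H3 at lysine 9 that can be inherited. The arms of the C. elegans autosomes are known for more repeats, transposon remnants, H3K9 methylation and fast-evolving gene families than the centres. On chromosome II the arms hold many genes of the F-box and MATH-domain families, many of whose proteins are thought to bind substrates for degradation.

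The series holds 1 library per group and no replicate, both from young adult hermaphrodites. The coIP library is labelled with the strain name HRDE-1-coIP and was made from worms that carry FLAG-StrepII-HRDE-1, pulled from a lysate of ground whole animals with an anti-FLAG resin; the labels name no allele of that strain. The N2 library is from the wild type, and its labels carry the same pull-down protocol, so it is not stated whether it is total small RNA or a mock pull-down. Both were cloned without the need for a 5′ monophosphate, so 22G RNAs, which carry a triphosphate, could be captured. The table gives bins without genes, strand or read length, its positions could not be matched to the annotated assembly, and no genome sequence was used here, so regions are given by position. Animals were pooled and whole, so a difference in germline content and a difference in small RNA per cell cannot be told apart, and neither can the strain and the pull-down.

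Values are ppm, parts of 1000000 of the sum of a library's column. The bins of the series held about 4832001 read equivalents in the coIP and 2161949 in N2, and those of the arm 334644 in the coIP and 44316 in N2. Bins with a mean over both libraries of at least 0.351 ppm counted as measured, and a measured bin was called higher or lower when the log2 ratio of coIP over N2, after adding 0.121 ppm to each, passed 4-fold. Every bin carries a floor of 0.1 in the deposited unit, which stands for no read; ppm values include it, while ratios and shares of a library do not. In the arm 17.3% of bins were at the floor in the coIP and 44.96% in N2. With 1 library per group there is no test between groups. Intervals are at 95% and cover counting error only. Reads without molecular identifiers are not independent molecules, so those intervals may be too narrow.

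The left arm of II carried more of the coIP library than of the N2 library. It held 6.93% of the coIP signal (exact binomial interval 6.90 to 6.95) and 2.05% of the N2 signal (2.03 to 2.07), a ratio of 3.38 (3.35 to 3.41). Among the 12 arms and 6 centres of the chromosomes, cut by the same 30% rule, that ratio was the highest; the left arm of I followed at 3.26, and the centre of V was lowest at 0.367. By its coIP share alone the arm ranked 3 of 18, behind the right arm of I at 8.20% and the right arm of II at 7.79%. Its N2 share ranked 15 of 18, so its high ratio goes with a low N2 share. The order of the ratios rests in part on a few strong N2 bins elsewhere. With the 10 highest bins of either library left out of each arm or centre, a choice made after the values were seen, the left arm of II was again first at 4.11, and the left arm of X followed at 3.48. Library totals were kept whole there, and the 10 highest N2 bins of the series held 41.0% of the N2 library. With totals that leave out the 10 highest bins of either library, the arm held 7.31% of the coIP and 3.50% of N2. Those shares give a lower ratio than 3.38.

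In the arm 2864 bins were measured, and 902 of them (31.5%) were at least 4-fold above N2 in the coIP, against a background of 19.4% over all measured bins of the series. Lower bins numbered 179 (6.25%), against a background of 9.04%. The median log2 ratio was 1.25, with quartiles of 0.03 and 2.32, against 0.73 for all measured bins. No other arm or centre had a larger share of higher bins. The right arm of I followed at 25.3%, the left arms of the other 5 chromosomes had 23.2% together, the right arm of II had 21.4% and the centre of II 14.0%. The counts depend on the scaling: scaling by the median of ratios gave 564 higher bins (21.9%), against a background of 11.7%, and 227 lower bins (8.81%), against a background of 13.3%. With totals that leave out the 10 highest bins of either library, 609 bins were higher (20.05%), against a background of 11%, and 351 were lower (11.6%), against a background of 17.2%. Over all bins of the series lower calls then outnumbered higher ones, at 7116 against 6292 under the median of ratios and 10728 against 6852 under the other scaling. In the arm, higher bins were 83.4%, 71.3% and 63.4% of the calls under library totals and these 2 scalings, in that order.

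**Figure D1:**
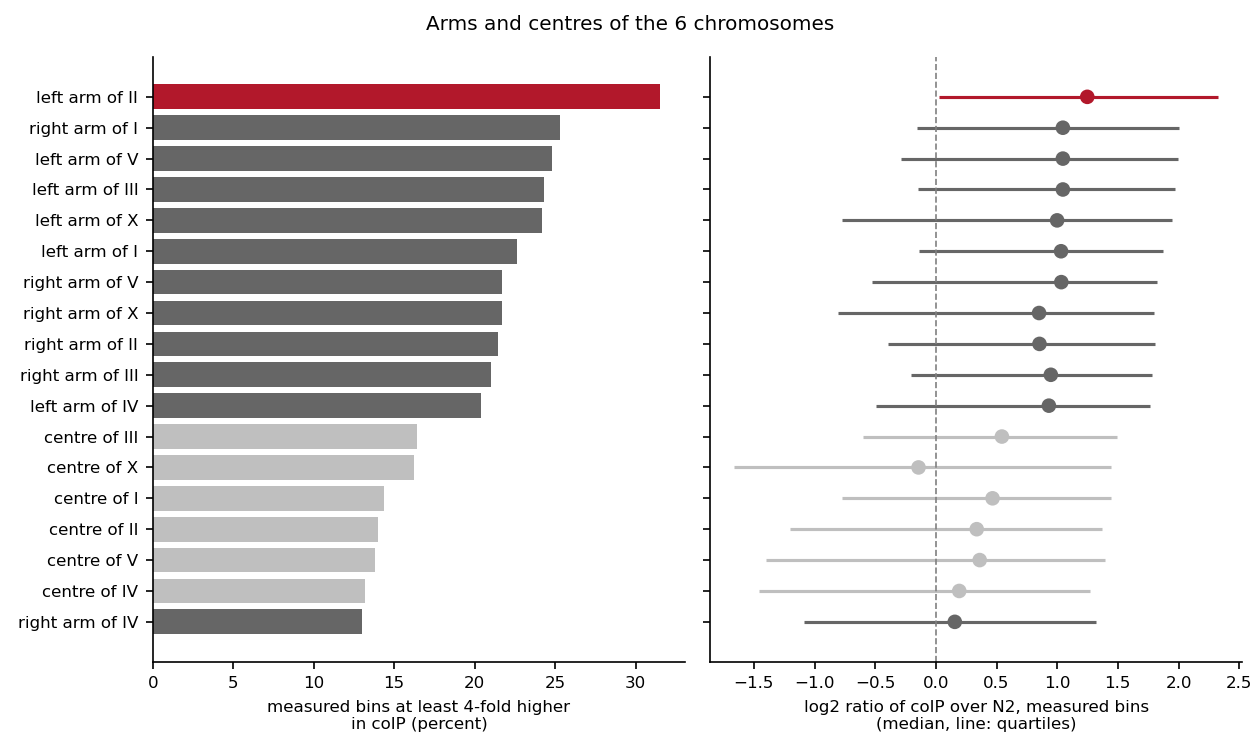
Percent of measured bins at least 4-fold higher in the coIP (left panel, bars) and log2 ratio of coIP over N2 (right panel, points are medians and lines quartiles) in the 12 arms (dark grey) and 6 centres (light grey), with the left arm of II in red. The left arm of II stands at 31.5% and a median of 1.25, and the centre of II at 14.0% and 0.34.

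Calls were also counted among bins with more signal. At 10 times the minimum, 485 of the 893 bins of the arm were higher (54.3%), against a background of 32.7%, and 64 were lower (7.17%), against a background of 11.8%. The median log2 ratio of these bins was 2.18 in the arm, 1.30 in the right arm of II and 0.55 in the centre of II. This minimum is set on the mean of both libraries, so a bin can pass it through the coIP alone. With a minimum of 5 reads on N2 alone, chosen after the data were seen, 32.2% of the bins of the arm were higher, against a background of 17.6%, and 15.2% were lower, against a background of 18.7%, with a median of 1.20 in the arm. No replicate error exists for these differences between arms. The place of the arm was the same under other settings: it had the largest share of higher bins among the 18 arms and centres under all 12 settings of scaling, minimum, pseudocount, fold and bin choice, and the largest median under 11 of them. The exception was the median with no minimum, where it was 0.49, the third of 18. The main setting is among the 12. The fold threshold does not enter the median, so the 2-fold and 8-fold settings only repeat the main median of 1.25. Scaling by the median of ratios or by totals without the 10 highest bins multiplies all bins of a library by the same factor. Such scaling can hardly change the order of the medians.

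Bins with like N2 level gave a closer comparison. Among bins of 21 to 100 N2 read equivalents, the 180 bins of the arm had a median of 231.8 coIP read equivalents, against 116.6 in the left arms of the other 5 chromosomes, 107.7 in the right arm of II and 46.0 in the centre of II. In the band of 6 to 20 N2 reads the medians were 45.5 in the arm, 30.8 in the other left arms, 33.1 in the right arm of II and 26.8 in the centre of II. At 2 to 5 N2 reads the medians lay close, at 10.0 in the arm, 9.35 in the other left arms, 10.0 in the right arm of II and 8.996 in the centre of II. The order turned above 100 N2 reads, where the 86 bins of the arm had a median of 814.5, below the 1172 of the right arm of II and above the 692.7 of the other left arms. Quartiles overlapped between the parts in every band.

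**Figure D2:**
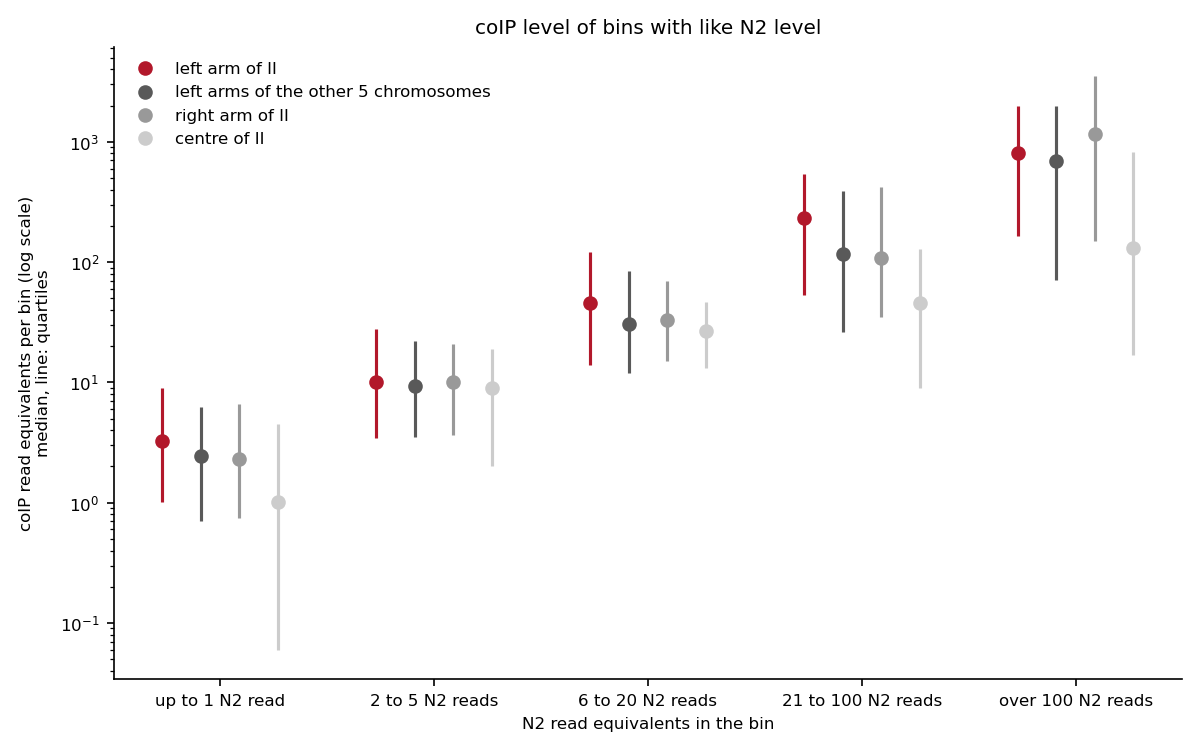
Median coIP read equivalents per 1 kb bin (log scale, lines are quartiles) for bins grouped by N2 read equivalents, in the left arm of II (red), the left arms of the other 5 chromosomes, the right arm of II and the centre of II. The arm stands above the other parts at 6 to 20 and 21 to 100 N2 reads, and below the right arm of II over 100 N2 reads.

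Within the arm both libraries were concentrated in few bins. The upper 50% of the arm's signal lay in 41 bins in the coIP and in 32 bins in N2, and the 10 highest bins held 26.6% of the coIP signal of the arm and 37.3% of its N2 signal. The 20 highest coIP bins had ratios from 4.03 to 95.1. Of the 20 highest N2 bins, 10 were higher by the 4-fold rule, 4 were lower and 4 were within 2-fold. Ranking by a library by itself favours a ratio towards that library, so these lists are descriptions and cannot be set against each other. Of the 10 highest bins of each library, 6 were shared, and of the 100 highest 51, which is 51.0% of either list. Across the measured bins, which are not independent replicates and share the 2 libraries, the log2 values correlated with a Pearson's r of 0.610 and a Spearman's rho of 0.460.

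The arm held more than its share by length of the strongest coIP bins. Of the 100 highest coIP bins of the series 9 lay in it, and of the 1000 highest 77, or 7.70%, against its 4.57% of all bins. The corresponding numbers for N2 were 3 of 100 and 48 of 1000 (4.80%). Such counts were not made for the other arms.

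**Figure D3:**
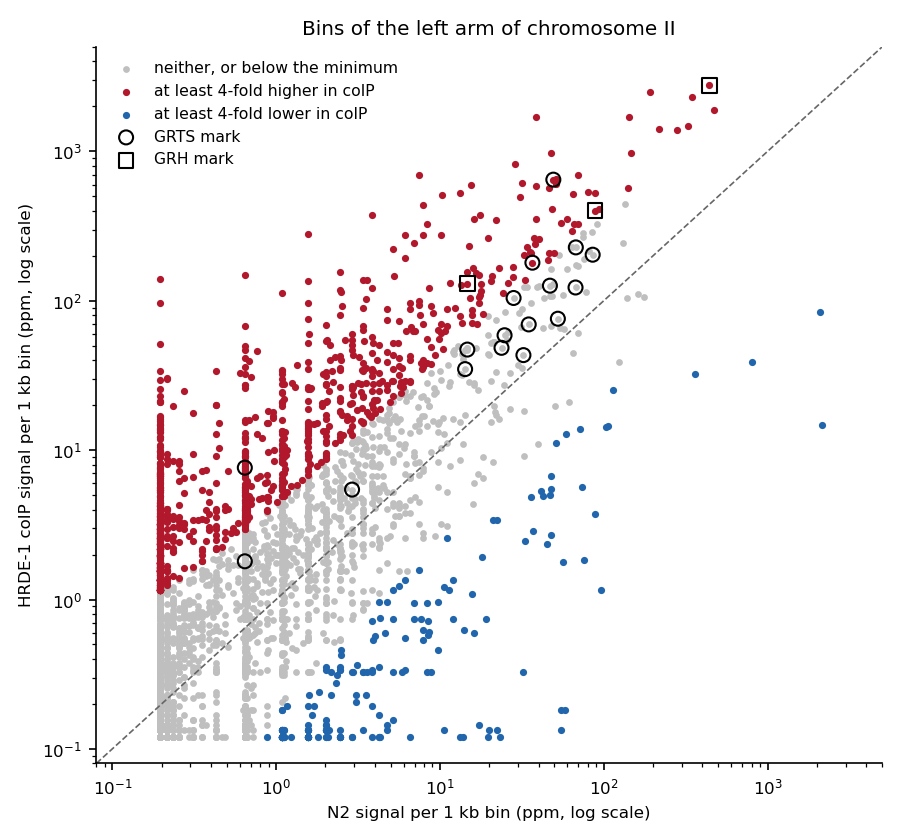
Each point is a 1 kb bin of the left arm of II, with its coIP signal on the vertical and its N2 signal on the horizontal axis (ppm, both log scales); the dashed line marks equal shares. The 902 higher bins (red) lie above, the 179 lower bins (blue) below, and the 20 marked bins (open symbols) all lie above the line of equal shares.

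Many calls rested on few N2 reads. Of the 902 higher bins, 327 had no more than 0.05 N2 read equivalents, 592 had under 3, and 144 had 10 or more. On the coIP side 573 of them had 20 or more reads. Among the 179 lower bins, 131 had under 3 coIP reads and 51 had 20 or more N2 reads. A bin with 0 reads allows up to 3 reads, which is 0.621 ppm in the coIP against 1.39 ppm in N2.

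The signal was uneven along the arm. Over 46 tiles of 100 kb, the last one partial, the coIP signal ran from 111.4 to 9897 ppm with a median of 747.1, and the N2 signal from 49.6 to 2276 ppm with a median of 217.9. With library totals, the ratio was above 1 in 43 tiles and below 1 in 3, with a median of 4.08. The 5 tiles with most coIP signal held 41.0% of that of the arm. The outer 2292 bins of the arm had a ratio of shares of 5.24 (5.16 to 5.32) and the inner 2292 bins one of 2.13 (2.10 to 2.16); higher bins were 34.6% of measured bins in the outer part and 27.2% in the inner part. Without the 2 highest N2 bins of the arm, at II 2452001 and II 3062001, which both lie in the inner part, its ratio was 3.275 (3.22 to 3.33). In windows of 500 kb from the chromosome end, the ratio was 6.76, 7.15, 4.43, 5.20, 2.60, 2.07, 1.76, 5.02 and 3.67, and 7.81 in the last 84 bins. Every window thus lay above 1, and the 3 lowest stood side by side between II 2000001 and 3500000. Higher bins made up 16.3% to 41.6% of the measured bins of a window, most in II 1500001 to 2000000. The same 2 N2 bins lie in the first and the last of those 3 windows, which had ratios of 4.405 (4.29 to 4.52) and 3.19 (3.10 to 3.28) without them.

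The strongest zone was II 1900001 to 2100000, which spans 2 of the 3 tiles with most coIP signal. It held 15427 ppm in the coIP against 3295 ppm in N2, which is 22.5% of the coIP signal of the arm and 16.2% of its N2 signal. Its ratio of 4.69 (4.58 to 4.81) was near that of the median tile, so it was a zone of much signal in both libraries. Of its 200 bins 192 were measured, 80 were higher and 3 lower. The remaining tile of the 3, II 3300001 to 3400000, had 5979 ppm in the coIP against 2000 ppm in N2, and a ratio of 2.99 (2.90 to 3.09).

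The tiles with the largest ratio were others. The tile II 3700001 to 3800000 had 1580 ppm in the coIP against 81.5 ppm in N2. Its ratio was 25.1 (21.1 to 29.9), and 29 of its 46 measured bins were higher (63.0%), the largest share of any tile. Its coIP signal had several peaks: II 3732001 to 3733000 had 326.6 ppm in the coIP against 8.36 ppm in N2, and II 3749001 to 3750000 had 276.2 against 6.09 ppm. Another peak, II 3778001 to 3779000, had 244.8 ppm in the coIP against 6.99 ppm in N2, and the bin after it had 223.6 against 5.17 ppm. The tiles II 900001 to 1000000 and II 300001 to 400000 followed, with ratios of 15.9 (14.5 to 17.6) and 11.7 (10.7 to 12.7). In the last of these tiles a single bin held 88.5% of the coIP signal. The next tile, II 2800001 to 2900000, differed from it by less than counting error, at 11.65 (10.6 to 12.8).

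Lowest in coIP signal were the tiles II 3600001 to 3700000, II 2600001 to 2700000 and II 4100001 to 4200000, with 111.4, 150.8 and 180.9 ppm in the coIP against 49.6, 251.6 and 49.8 ppm in N2. The 3 tiles with a ratio below 1 were II 3000001 to 3100000 at 0.111 (0.104 to 0.119), II 2400001 to 2500000 at 0.142 (0.134 to 0.150) and II 2600001 to 2700000 at 0.593 (0.528 to 0.667). In the first of these tiles 1 bin held 94.8% of the N2 signal, and in the second 1 bin held 95.8%. Their median bins were above 0 on the log2 scale, at 0.72 and 1.14, so their low ratios rest on those bins.

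**Figure D4:**
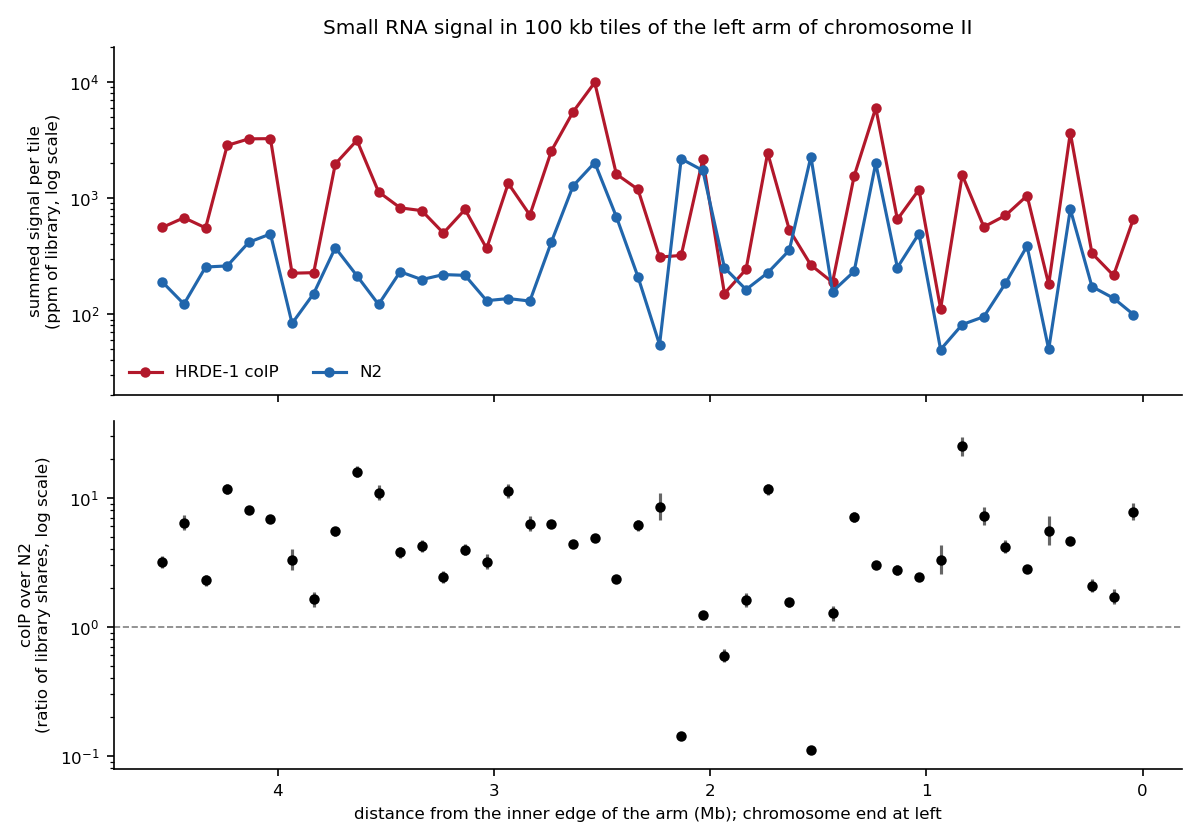
Summed signal per 100 kb tile of the left arm of II (upper panel, coIP red, N2 blue, ppm on a log scale) and ratio of coIP over N2 as library shares (lower panel, points with 95% counting intervals, log scale), by distance from the inner edge of the arm with the chromosome end at left. With library totals the ratio lies above 1 in 43 of 46 tiles. The deepest points, at 0.111 and 0.142, are tiles with 1 very strong N2 bin.

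Higher bins stood in runs. With gaps of up to 1 bin bridged, the 902 higher bins made 332 runs, of which 128 were a single bin (38.6%), 68 were 5 bins or more (20.5%) and 15 were 10 bins or more; the widest was 21 kb. In the rest of the series 56.6% of the higher runs were a single bin and 10.2% were 5 bins or more. The right arm of II had 54.9% single bins and the centre of II 60.1%. Runs grow longer where more bins are called, and 31.5% of measured bins were higher in the arm against 18.8% elsewhere. Whether the runs were wider than those shares give was not tested. Lower runs of the arm, built from far fewer called bins, were narrower than its higher runs: of 112, 75 were a single bin (67.0%) and the widest was 9 kb. All higher runs together, the bridged bins included, held 82.1% of the coIP signal of the arm and 31.9% of its N2 signal. These runs were built from bins called by their ratio. Their larger share of the coIP thus follows from the choice, here and in the lists of higher runs below.

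Ranked by coIP signal, the first 10 higher runs had 1814 to 4541 ppm in the coIP each. They summed to 38.4% of the coIP signal of the arm and 18.1% of its N2 signal. Only 1 of them carried an authors' mark. The largest was II 2038001 to 2050000, with 4541 ppm in the coIP against 887.6 ppm in N2 and a ratio of 5.09 (4.86 to 5.33). Its signal had several peaks: the bins starting at 2040001 and 2041001 had 1907 and 1413 ppm in the coIP against 470.0 and 217.9 ppm in N2. Further peaks stood at 2045001, with 518.1 ppm in the coIP against 64.8 ppm in N2, and at 2048001, with 354.5 and 38.5 ppm. Next to it, II 2025001 to 2035000 had 3572 ppm in the coIP against 597.6 ppm in N2 and a ratio of 5.95 (5.63 to 6.30). In that run the bin at 2034001, the highest coIP bin of the whole arm, took 77.7% of the signal, with 2774 ppm in the coIP against 440.3 ppm in N2.

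Other runs of this list differed in shape. The run II 394001 to 399000 was nearly a single peak: the bin at 395001 had 2515 ppm in the coIP against 190.5 ppm in N2, 96.8% of the run's coIP signal, and the ratio of the run was 13.4 (12.1 to 14.8). The run II 582001 to 585000 was alike, with 2322 ppm in the coIP against 346.9 ppm in N2 in its first bin and a ratio of 6.83 (6.37 to 7.34) over the run. By contrast, II 1908001 to 1929000 spread 1902 ppm of coIP signal and 305.5 ppm of N2 signal over 21 bins, of which 20 were higher, and its strongest bin held 21.7%. The ratio of this broad run was 6.26 (5.78 to 6.77).

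II 965001 to 972000 had the largest ratio of the 10, at 18.7 (16.4 to 21.3), with 2041 ppm in the coIP against 109.7 ppm in N2. Most of its signal stood in 3 neighbouring bins from 968001, with 353.0, 583.6 and 968.9 ppm in the coIP against 16.1, 38.5 and 47.4 ppm in N2. II 893001 to 898000 had 13.6 (12.1 to 15.3) and II 1845001 to 1849000 had 10.7 (9.70 to 11.9). II 3370001 to 3384000 had 3334 ppm in the coIP against 483.4 ppm in N2 and a ratio of 6.88 (6.47 to 7.33), although its bin at 3374001 was even, with 19.9 ppm in the coIP against 21.5 ppm in N2. The lowest ratio was that of II 4234001 to 4236000, at 4.84, with a lower bound of 4.50. With scaling by the median of ratios, 6 of the 10 runs were at 4-fold or more.

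**Figure D5:**
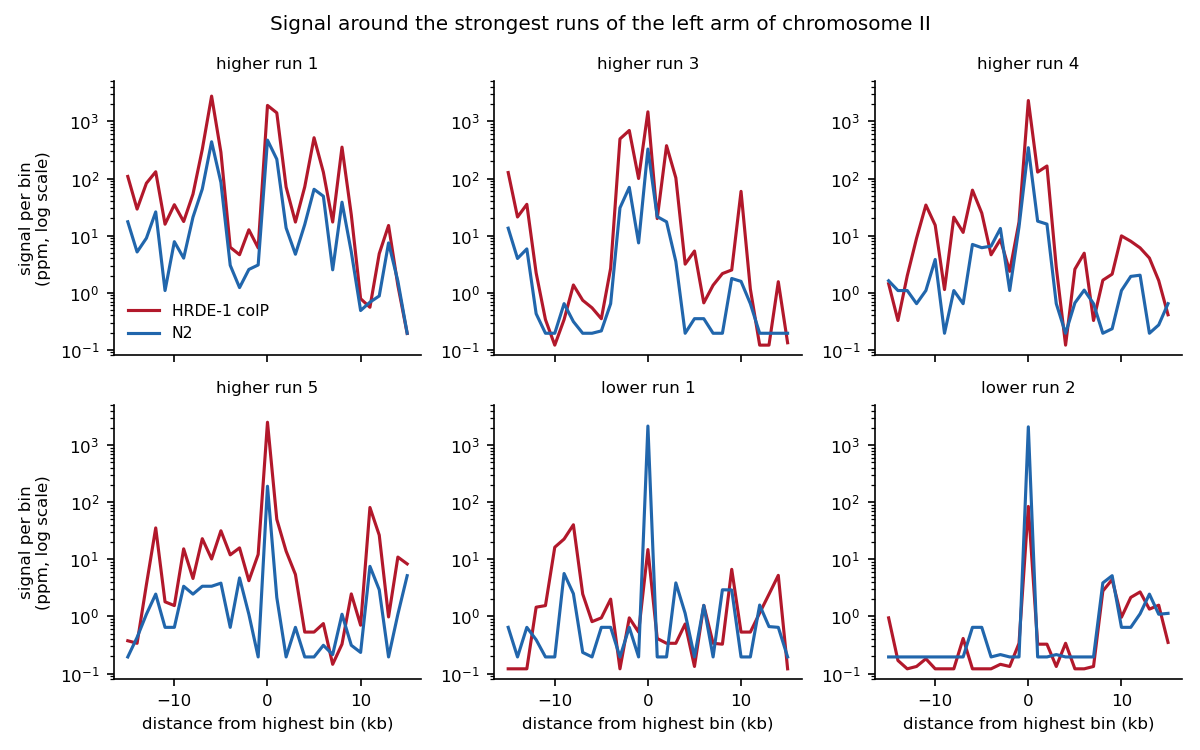
Signal per 1 kb bin (ppm, log scale) within 15 kb on either side of the highest bin, coIP red and N2 blue, for the higher runs ranked 1, 3, 4 and 5 by coIP signal and the lower runs ranked 1 and 2 by N2 signal; run 2 has its highest bin 6 kb to the left of that of run 1. Higher runs 1 and 3 have several peaks, at which the coIP lies above N2, runs 4 and 5 have 1 main peak, and both lower runs are 1 bin of 2157 and 2089 ppm in N2.

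A second list of 10 higher runs, each at least 2 bins wide, was ranked by ratio with N2 counted as at least 3 reads, and had little N2 signal. The runs held 82.8 to 1722 ppm in the coIP and 1.27 to 41.7 ppm in N2, and none carried a mark. The run II 2871001 to 2878000 was strong in the coIP, with 1722 ppm in the coIP against 41.7 ppm in N2, and its ratio was 42.3 (34.3 to 52.8); its first bin held 98.3% of the coIP signal. II 3206001 to 3211000 had 333.8 ppm in the coIP against 4.88 ppm in N2, and a ratio of 84.7 (42.6 to 177.5) on 8.61 N2 read equivalents. II 985001 to 993000 and II 1036001 to 1044000 had ratios of 65.4 (44.7 to 100.5) and 69.7 (44.8 to 120.0) on 26.1 and 18.3 N2 read equivalents. These wide intervals follow the few N2 reads.

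The run nearest the chromosome end, II 1001 to 6000, was also on this list, with 199.2 ppm in the coIP against 5.06 ppm in N2 and a ratio of 48.3 (25.3 to 105.9). For II 1022001 to 1025000, with 1.51 N2 reads, only the interval can be given, 24.8 to 747.0. The run II 3271001 to 3278000 had 829.8 ppm in the coIP against 9.69 ppm in N2, and a ratio of 98.9 (63.7 to 170.2). The other runs of the list started at 1732001, 3230001 and 3407001 and had ratios of 46.3 to 56.0.

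Lower runs were few and led by single bins. The 5 with the largest N2 signal held 0.268% of the coIP signal of the arm and 28.8% of its N2 signal, and none carried a mark. Their smaller share of the coIP follows from the choice of lower bins. The bin II 3062001 to 3063000 had 14.8 ppm in the coIP against 2157 ppm in N2, which is 147.8-fold lower (117.0 to 189.0). The bin II 2452001 to 2453000 had 84.3 ppm in the coIP against 2089 ppm in N2, which is 24.99-fold lower (22.6 to 27.7). The bins on both sides of each had no N2 read. These 2 bins alone held 21.1% of the N2 signal of the arm.

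The other lower runs were wider. II 2502001 to 2504000 had 71.8 ppm in the coIP against 1171 ppm in N2, 16.5-fold lower (14.7 to 18.5), and the bin before it was also low, at 19.8 ppm in the coIP against 50.1 ppm in N2. II 2612001 to 2621000, of 9 bins, had 4.56 ppm in the coIP against 194.1 ppm in N2, 55.8-fold lower (34.4 to 96.6). II 3313001 to 3318000 had 9.72 ppm in the coIP against 177.1 ppm in N2, 19.5-fold lower (14.1 to 26.9), and all 5 of its bins were lower. The kinds of small RNA behind these bins cannot be told apart in a table without read length, first base or strand.

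Bins strong in both libraries lay close to the last of these runs. Of the 5 bins within 2-fold that had the largest signal in their weaker library, 4 lay in II 3303001 to 3311000. That span, chosen after its values were seen, had 694.9 ppm in the coIP against 826.7 ppm in N2 and a ratio of 0.835 (0.788 to 0.884). The highest of the 4, at 3309001, had 244.7 ppm in the coIP against 131.1 ppm in N2, while the other 3 leaned to N2: the bin at 3303001 had 105.4 ppm in the coIP against 175.6 ppm in N2, that at 3306001 had 111.2 against 161.4 ppm and that at 3310001 had 104.6 against 139.6 ppm. The tile II 3300001 to 3400000 thus held balanced bins, a lower run and the higher run at 3370001 within 100 kb. The fifth balanced bin, II 1820001 to 1821000, had 114.3 ppm in the coIP against 78.0 ppm in N2.

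The authors' marks were sparse in the arm. GRTS and GRH, which are not spelled out in the table, are used in published work on HRDE-1 for loci silenced in transcription by nuclear RNAi and for loci whose H3K9 methylation depends on it. How the authors assigned the marks is not stated. The arm held 17 GRTS and 3 GRH bins, all 20 measured and none with both marks, in 8 runs. Of the GRTS bins 3 were higher and 0 lower, and of the GRH bins all 3 were higher. In the rest of the series 36 of 173 measured GRTS bins and 87 of 210 GRH bins were higher, beside the background of 19.4% of all measured bins and the 31.5% of the arm. Their median log2 ratios were 1.28 and 2.66, against 1.46 and 1.86 for the GRTS and GRH bins of the rest of the series. The 20 marked bins held 7.76% of the coIP signal of the arm and 5.59% of its N2 signal, so 92.2% of its coIP signal was unmarked. In the rest of the series marked bins held 11.9% of the coIP signal and 2.67% of the N2 signal.

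The largest marked interval was II 2150001 to 2163000, with 9 GRTS bins of 13. It had 1330 ppm in the coIP against 521.9 ppm in N2 and a ratio of 2.54 (2.38 to 2.71). Its marked bins ran from 43.3 to 227.7 ppm in the coIP and from 14.7 to 85.6 ppm in N2, and their log2 ratios from 0.42 to 2.29. The other large interval, II 2516001 to 2521000 with 5 GRTS bins, had 233.0 ppm in the coIP against 89.6 ppm in N2 and a nearly equal ratio of 2.60 (2.24 to 3.05). Both lay below 4-fold as a whole.

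Single marked bins varied more. The GRH bin at II 2034001, the highest coIP bin of the arm, had a ratio of 6.26 (5.86 to 6.68), and the GRH bins at 3354001 and 3448001 had 4.50 (3.88 to 5.24) and 8.90 (6.24 to 13.1). The GRTS bin II 438001 to 439000 had 647.0 ppm in the coIP against 49.3 ppm in N2 and a ratio of 13.1 (10.8 to 16.0). The GRTS bins at 1486001 and 4211001 were weaker: the first had a ratio of 1.44 (1.17 to 1.79), and the second had about 1 N2 read, 1.80 ppm in the coIP against 0.644 ppm in N2.

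In the authors' deposited table, the p-value was 0.05 or less for 894 bins of the arm (19.5%) with more coIP than N2 signal, against a background of 12.6% of all bins, and for 151 bins (3.29%) with less, against a background of 4.82%. Of the 894 in the authors' deposited table, 710 were also at least 4-fold higher here, against 7963 of 11699 elsewhere in the series. In turn, 192 of the arm's 902 higher bins had a p-value over 0.05 in the authors' deposited table. Of the 20 marked bins, 17 passed the same p-value in the authors' deposited table, near the share of 303 of 361 elsewhere. The right arm of II had 14.4% and the centre of II 10.1% of bins higher by the authors' deposited table. How these p-values were made is not stated.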

How the data were processed

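Bowtie 0.12.7 is listed per the submitters' processing notes; no source used here gives the build, read filters or treatment of reads with several sites. The authors deposited 1 coverage signal per 1 kb bin and library for chromosomes I to V and X. Judged by the values, bins without a read hold 0.1, and 1 read is worth 0.168968 in the coIP and 0.232258 in N2; read equivalents are values above the floor divided by these. Many are not whole, so no count test was run. The authors also deposited a p-value per bin, rounded, and marks.

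The bins of V end at 20920000, which differs from the reference annotation given (WBcel235). Positions were not converted, no gene was named and no sequence was read.

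Ratios and shares used the floor subtracted; bin calls did not. Ratio intervals are exact conditional binomial. The named regions were the 10 higher runs by coIP signal, 10 by ratio, 5 lower runs by N2 signal, the marked runs, 5 balanced bins and the 3 highest and lowest tiles; the zone at II 1900001 to 2100000 was chosen after its values were seen. Members and lists were chosen with earlier results of these data known. Calls were tested on simulated data, but only bins with many expected reads were changed and scored. Calls on few reads, which make up much of the arm's calls, were not covered. Python 3.11.15, pandas 2.3.3 and scipy 1.17.1 were used. Alternatives of scaling, minimum, pseudocount, fold, arm edge and gap were tried.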

Additional observations from a re-analysis of the deposited data

How the results depend on the processing

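No paired analysis was possible because there is a single library in either group. No recomputed median log2 ratio or named-run ratio of the arm changed sign. For the named runs this follows from their choice: all lay beyond 4-fold, and the 2 scalings shifted log2 ratios by about -0.68. Counts and shares were only judged as moved or not. Tiles and single marked or balanced bins were not recomputed. Under that shift tile ratios near 1, such as 1.24 at II 2500001 to 2600000, would fall below 1. Over all measured bins the median turned to -0.09 with the median of ratios, against 0.73 with library totals. The 902 higher and 179 lower bins of the arm became 564 higher with scaling by the median of ratios, 351 lower with totals without the 10 highest bins, 485 and 64 at 10 times the minimum, 464 and 71 with a pseudocount 10 times larger, 283 lower with one 10 times smaller, 1682 and 399 at 2-fold, 436 and 86 at 8-fold, and 117 lower with the arm as the first 20%. The median log2 ratio of 1.25 (1.18 to 1.32, bins taken as independent) became 0.70 with the median of ratios, 0.60 with totals without the 10 highest bins, 0.49 with no minimum, 2.18 at 10 times it, and 0.58 and 1.43 with the larger and smaller pseudocount. Over all measured bins the median was 0.10 with the totals without the 10 highest bins, so under library totals, the median of ratios and those totals the arm lay 0.52, 0.80 and 0.50 above it. Shares of the coIP and of N2 were 7.31% and 3.50% without the 10 highest bins of the series, 5.05% and 1.33% at 20%, and 6.897% and 2.099% with the floor kept. GRTS and GRH medians of 1.28 and 2.66 became 0.60 and 1.97 with the median of ratios, and the GRH one 1.38 for bins with either mark.

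Chosen after the data were seen, N2 alone at 5 or more reads gave 223 higher and 105 lower bins (32.2% and 15.2%, against 17.6% and 18.7% of such bins over the series), whole N2 reads 288 and 114 (24.3% and 9.62%, against 13.9% and 11.2%) with a median of 0.48, and totals without the 10 highest bins marked medians of 0.61 and 1.98. Without the arm's own 10 highest bins of either library it held 5.16% of the coIP and 1.24% of N2. Run counts stayed within 1.5 times. Of 75 values for the 25 named runs, 36 lay beyond their counting interval, all from the 2 scalings. The causes were not tested. Gene lists were not run, and depth limits ratios under 3 N2 reads.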

Other observations

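The inner edge of the arm, set by the 30% rule, fell in a stretch of little signal, and the call shares on its sides differed. In the last 500 kb inside the edge 17.2% of measured bins were higher in the coIP and 6.17% lower, against 8.61% higher and 20.9% lower in the first 500 kb outside it. The median log2 ratio was 0.89 inside and -0.02 outside. The ratio of shares was 4.18 (4.02 to 4.36) inside and 1.64 (1.59 to 1.70) outside. These ratios rest on few bins: the 10 highest coIP bins held 82.1% of the coIP signal inside and 68.4% outside. The outermost 100 kb of the arm, next to the chromosome end, had a ratio of 3.20 (2.87 to 3.57), with 29.4% of its measured bins higher, close to the 31.5% of the whole arm.

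A few bins of the arm had nearly the same value at places far apart. The bins at II 479001, 2981001 and 3940001 had deposited values of 43.67, 43.59 and 43.49 in the coIP and 11.03 in N2 at all 3 places. The bins at 1705001 and 3246001 had 9.23 and 9.22 in the coIP and 1.49 in N2 at both places. Fractional read equivalents were frequent: at 10 times the minimum, 48.0% of the bins of the arm with N2 signal had a fractional N2 value, against 39.2% of other bins. Of the whole-read bins 54.8% were at least 4-fold higher and of the fractional ones 48.5%, with median log2 ratios of 2.29 and 1.94. In the other bins of the series those shares were 30.4% and 30.9%.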
